A study of Mus musculus with 18 samples.

Results

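RNAseq levels in dorsal spinal tissue (L3–5) were compared between HDAC4 3SA CFA mice and HDAC4 wt CFA mice, which are 6 of the 18 mice of the series. Both groups were C57BL/6 mice (C57BL/6N in the study's methods) of 3 months that carried a recombinant adeno-associated virus (rAAV) in the spinal cord and received complete Freund's adjuvant (CFA), an oil with killed mycobacteria that inflames the hindpaw, by intraplantar injection 24 h before the tissue was taken. The groups differed in the transgene. The HDAC4 wt group received wild-type histone deacetylase 4, and the HDAC4 3SA group received a mutant whose phosphorylation sites for nuclear export are lost, so that it stays in the nucleus. Both transgenes came on top of the mouse's own Hdac4, each with a Flag tag, and only cells reached by the virus carried them. The same vectors after intraplantar saline, and a virus with LacZ after CFA or saline, are given beside the comparison, with 3 mice in each group. The labels do not give the sex of these mice, and the promoter that drives the transgenes is not given in the sources used here.

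Members of the comparison were loci of the deposited gene tables. A locus was kept where the HDAC4 3SA table and the HDAC4 wt table gave it the same gene and overlapping places, where its status was OK or NOTEST in both, where the mean of the 2 CFA values was at least 1 FPKM (fragments per kilobase of transcript, scaled to the mapped fragments of the library), and where its name did not start with Igh, Igk or Igl. Of 34579 loci, 34292 could be joined and 17838 were compared. They comprised 16247 loci that name 1 gene, 186 that name several and 1405 without a name. The name filter took out 187 loci, 3 of which belong to Ighmbp2 and Iglon5 and encode no immunoglobulin. At the edge of the level filter, 422 loci had a mean between 1 and 1.1 FPKM and 503 lay between 0.9 and 1 FPKM.

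Each value in the tables is 1 estimate per group over 3 mice. The spread between mice and the exact depth of each library are therefore unknown, and no test could be run. All differences below are descriptions of 2 group values with no replicate check. The measure is the log2 ratio of HDAC4 3SA CFA over HDAC4 wt CFA after adding 0.1 FPKM to each, less the median over the 11085 loci above 5 FPKM, which was 0.0043. It is called the CFA ratio here. The saline ratio is the same quantity from the saline groups of the same tables. The vectors were normalised in separate runs by the authors, so that levels across tables stand side by side as a description. A locus is called higher or lower where the ratio passes 2-fold.

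HDAC4 belongs to the class IIa histone deacetylases, which hold MEF2 and other transcription factors in a repressed state while they are in the nucleus and leave the nucleus when calcium signals phosphorylate them. In the dorsal horn, the first relay of pain and touch from the skin, excitatory and inhibitory interneurons are told apart by their peptides and transcription factors. Microglia, the resident macrophages of the cord, change their transcripts when the tissue is disturbed, and lymphocytes and other blood cells can enter it. The comparison asks what differed between the nuclear mutant and the wild-type protein in the inflamed state.

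The targeted gene was checked first. Hdac4 (chromosome 1, from 91928777 to 92180314 on GRCm38) was listed at 8.81 FPKM in HDAC4 3SA CFA mice and 10.8 FPKM in HDAC4 wt CFA mice, at 8.86 and 10.1 FPKM after saline, and against 7.72 FPKM in LacZ CFA mice. The CFA ratio was -0.30. The values say nothing on the mutation itself, and how many vector reads were counted there is unknown. The list of 11 histone deacetylases, Hdac4 included, differed little, with 4 members higher, 7 lower and a median CFA ratio of -0.09. Hdac11, the most abundant, was listed at 216 and 207 FPKM. Among MEF2 factors and corepressors, Mef2a (37.0 and 35.1 FPKM) and Mef2d (25.8 and 26.2 FPKM) were also alike, and the list of 9 compared members had a median of -0.05. The Y-linked gene Ddx3y was at 26.2 FPKM in both groups and Eif2s3y at 11.7 FPKM in both.

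After CFA, 326 of 17838 loci (1.83%) were higher in HDAC4 3SA mice and 350 (1.96%) were lower. After saline the same loci gave 210 higher (1.18%) and 266 lower (1.49%). Most of these loci were not the usual transcript of a known gene. The order of the identifiers gives each locus a strand, which matched the annotation for 10653 of 10720 genes (99.4%) with a single locus over most of their length. Among 14420 loci on the annotated strand of the gene they name, 108 were higher and 73 lower. Among 1508 loci on the other strand of that gene, 41 were higher and 143 lower, and their median CFA ratio was -0.44, against 0.00 on the annotated strand. The median of these other-strand loci after saline was -0.00. Loci without a gene name gave 138 higher and 125 lower of 1405. Among 881 loci under 200 bp, 155 were higher and 76 lower.

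**Figure D1:**
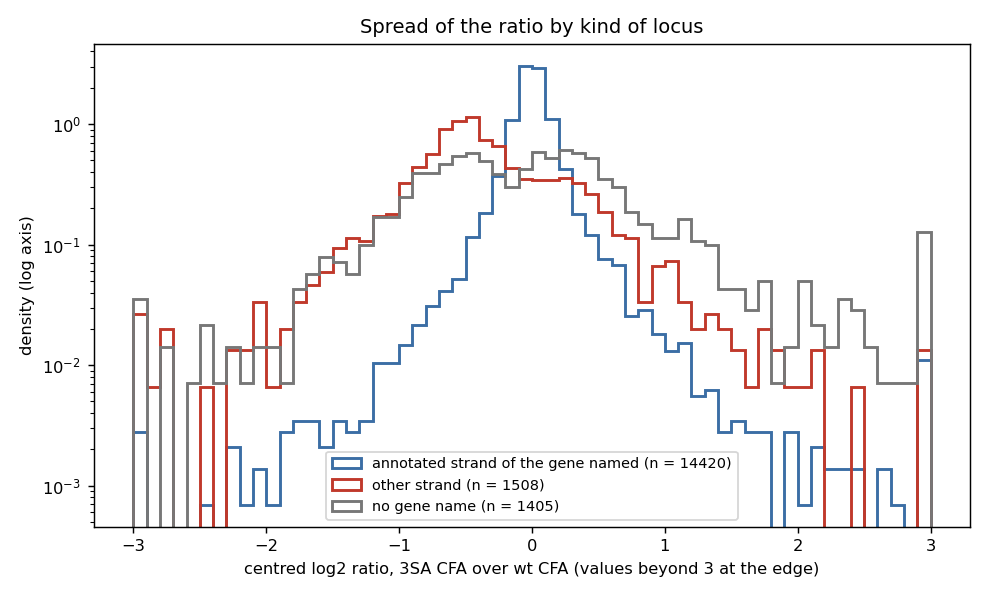
Distribution of the CFA ratio (log2, HDAC4 3SA CFA over HDAC4 wt CFA, horizontal axis) as density on a log axis for loci on the annotated strand of the gene they name (blue), on the other strand (red) and without a name (grey). The blue curve is narrow around 0, while the red curve has its median at -0.44 and the grey curve is broad, with values beyond 3 drawn at the edge.

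Genes were therefore read from 1 locus each, the one on the annotated strand that covers the largest part of the gene. This left 13857 genes, of which 68 (0.491%) were higher and 64 (0.462%) lower after CFA, and 50 (0.361%) higher and 65 (0.469%) lower after saline. Of all 13857 genes, 6788 (49%) had a CFA ratio above 0, which is the background for the CFA counts in lists below. The share of all genes with a saline ratio above 0 was not counted, so the saline counts in lists stand without such a background. The central 90% of genes lay between -0.30 and 0.27. Of the 68 higher genes, 25 were also higher by 2-fold after saline, 22 leaned the same way and 21 the other way. Of the 64 lower genes, 13 were also lower by 2-fold after saline, 31 leaned the same way and 20 the other way. Across 9671 genes with a mean of 5 FPKM or more, the CFA ratio and the saline ratio had a Pearson correlation of 0.42 and a Spearman correlation of 0.15, over genes that share libraries. The LacZ CFA level lay between both HDAC4 groups for 41 of the 68 higher genes and for 31 of the 59 lower genes that could be read in the LacZ table.

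**Figure D2:**
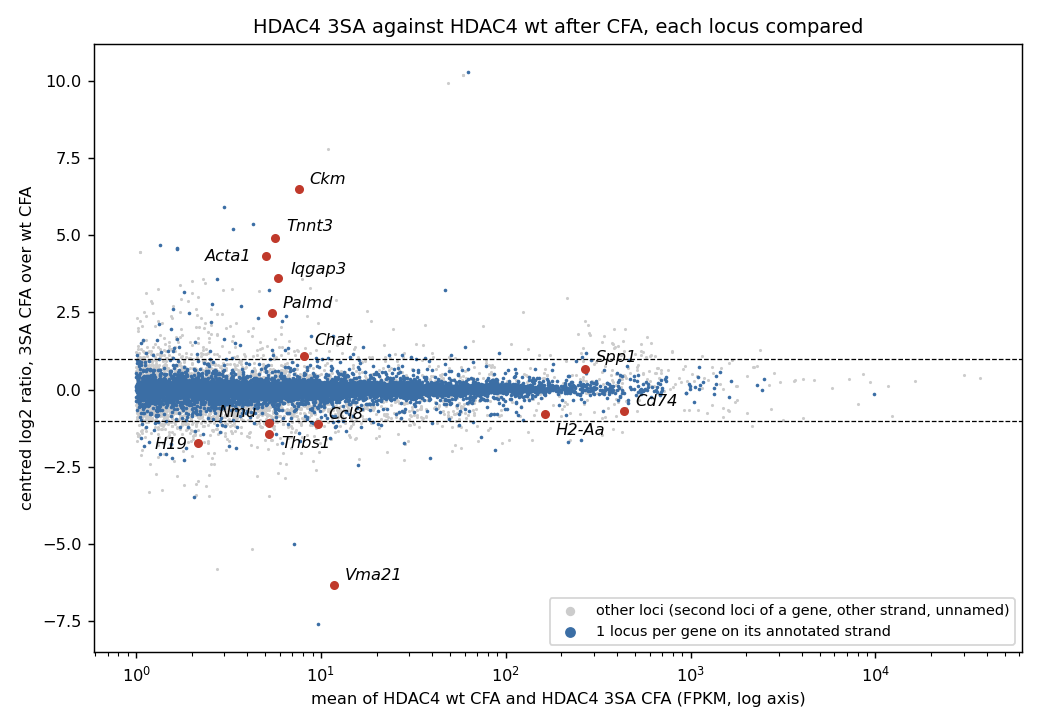
CFA ratio (log2, vertical axis) against the mean level in both CFA groups (FPKM, log axis) for each of 17838 loci. Blue points are 1 locus per gene, grey points the other loci, dashed lines mark 2-fold, and named genes are in red. Most blue points lie within 2-fold at any level, and the muscle genes Ckm, Tnnt3 and Acta1 are the highest of the genes in red.

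The 10 highest and 10 lowest named loci at 5 FPKM or more showed the same mixture, leaving out predicted gene names and loci listed at 0 in either group, among them Adam32 and Lhfpl3 (0 in HDAC4 wt CFA mice) and Krtdap (0 in HDAC4 3SA CFA mice). Among these 10 lowest, 7 lay on the strand opposite to their gene. The other-strand locus of Tank, an adaptor of NF-κB signalling, was listed at 34.2 FPKM in HDAC4 3SA CFA mice and 108 FPKM in HDAC4 wt CFA mice, while Tank on its own strand was at 13.5 and 14.4 FPKM (CFA ratio -0.09). Upp1, Brwd1, Tfdp1, Frmd8, Naip2 and Gbp3 were alike in this. Their other-strand loci had CFA ratios between -2.85 and -1.73, and the loci on their own strand lay between -0.23 and 0.15. The remaining 3 were Vma21, Pydc3 and Ikbkg. The Vma21 locus, a piece of 1054 bp on the X chromosome, was at 0.194 and 23.4 FPKM after CFA and at 0.286 and 22.96 FPKM after saline, so that it parted the tables and not the treatments. The Pydc3 locus, which covers a small part of that interferon-inducible gene, was at 13.9 and 64.0 FPKM after CFA and at 5.25 and 21.2 FPKM after saline. Ikbkg, a subunit of the IκB kinase, was at 12.9 and 43.1 FPKM after CFA, with 46.0 FPKM in LacZ CFA mice.

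Among these 10 highest, Cks1brt, Was and Ppp1r2-ps3 were pieces of 73, 61 and 55 bp, and D10Wsu102e covered a small part of its gene. Iqgap3, a scaffold protein of dividing cells, stood at 10.9 FPKM in HDAC4 3SA CFA mice and at 0.793 FPKM in HDAC4 wt CFA mice. The CFA ratio was 3.62, or 2.72 with 1 FPKM added. The other groups were at 1.04 FPKM (HDAC4 3SA saline), 0.946 FPKM (HDAC4 wt saline), 0.954 FPKM (LacZ CFA) and 0 (LacZ saline), so that 1 group stood apart from the other 5. Palmd, which encodes palmdelphin, was also highest in HDAC4 3SA CFA mice, with 9.23 FPKM against 1.57 FPKM in HDAC4 wt CFA mice, but LacZ CFA mice were at 5.77 FPKM and the saline groups between 1.92 and 3.14 FPKM. The remaining 4 (Ckm, Tnnt3, Acta1 and Tnni2) encode proteins of skeletal muscle.

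Skeletal muscle genes were the most different list. All 9 compared members were higher in HDAC4 3SA CFA mice, 8 of them by 2-fold, and the median CFA ratio was 4.33. Ckm, Acta1, Tnnt3 and Tnnc2 were each under 1 FPKM in HDAC4 wt CFA mice and met the level filter through the HDAC4 3SA value. The filter thus helped to set these counts. After saline the median was 2.99, again with 8 of 9 past 2-fold. With 1 FPKM added in place of 0.1, the CFA ratio of Ckm was 3.91 and not 6.49, and the CFA median was 1.87, and 2.33 over 11 members with no minimum level. Ckm, the creatine kinase of muscle, was listed at 15.1 FPKM in HDAC4 3SA CFA mice and 0.0688 FPKM in HDAC4 wt CFA mice (CFA ratio 6.49). It was at 14.5 and 1.21 FPKM after saline, and at 10.3 and 4.78 FPKM in LacZ CFA and LacZ saline mice. The wt CFA group was thus the lowest of all 6, and the LacZ groups lay between. Acta1, the α-actin of skeletal muscle, was listed at 9.74 and 0.387 FPKM after CFA (CFA ratio 4.33). It was at 12.5 and 1.495 FPKM after saline and at 8.94 and 3.94 FPKM in LacZ CFA and LacZ saline mice. The troponin genes Tnnt3 (11.1 and 0.270 FPKM after CFA) and Tnnc2 (6.60 and 0.0825 FPKM) had the same order. Tnni2, at 10.2 and 2.08 FPKM after CFA, did not, since LacZ saline mice (1.92 FPKM) and HDAC4 wt saline mice (1.95 FPKM) were lower than HDAC4 wt CFA mice. Only Pvalb, the calcium buffer that neurons of the cord also express, stayed under 2-fold, with 48.02 and 37.97 FPKM. Without Pvalb the 8 genes summed to 64.8 FPKM in HDAC4 3SA CFA mice and 4.83 FPKM in HDAC4 wt CFA mice, 76.2 and 9.76 FPKM after saline, and 48.8 and 22.996 FPKM in LacZ CFA and LacZ saline mice. In whole tissue, fewer cells of a type and less RNA per cell cannot be told apart, and the vector, the dissection and the authors' run cannot be told apart for these genes.

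The promoter of Acta1 is shown because Acta1 was among the genes most different between the groups. It carries a CArG box, the site of serum response factor, in capitals, which begins 73 bases before the start. The window runs from 250 bases before to 50 after the start in RefSeq on GRCm38.p6, minus strand, at chr8:123894726-123895025.
Acta1: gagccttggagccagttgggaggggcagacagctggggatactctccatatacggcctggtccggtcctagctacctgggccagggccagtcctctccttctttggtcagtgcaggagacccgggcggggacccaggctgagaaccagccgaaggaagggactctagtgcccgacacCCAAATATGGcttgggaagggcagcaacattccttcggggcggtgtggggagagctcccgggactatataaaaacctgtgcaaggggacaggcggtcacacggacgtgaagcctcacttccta
A CArG box (CC, 6 bases that are A or T, and GG) was found in 425 of 27025 promoters of this length (1.57%) and in 2 of the 6 muscle genes with an entry, Acta1 and Myh4. The letters CTA, any 4 bases and TAG, a rough reading of the MEF2 site, were in 999 promoters (3.70%) and in 0 of these 6 windows. This pattern is looser in its middle and stricter at its ends than the site, so it does not show whether MEF2 sites are absent. Both strands were searched. A match describes the letters only.

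Motor neuron genes were higher as well. All 9 compared members of the list had a positive CFA ratio, with a median of 0.58 (0.43 after saline, 9 of 9 positive), and 2, Chat and Mnx1, passed 2-fold. With 1 FPKM added neither did (0.98 for Chat and 0.78 for Mnx1). Chat, the enzyme that makes acetylcholine, was listed at 11.05 FPKM in HDAC4 3SA CFA mice and 5.09 FPKM in HDAC4 wt CFA mice (CFA ratio 1.098), against 4.45 and 2.25 FPKM after saline and 5.97 and 4.57 FPKM in LacZ CFA and LacZ saline mice. Slc18a3, the vesicular acetylcholine transporter, was at 17.4 and 10.9 FPKM after CFA. Prph, the neurofilament peripherin, was at 43.5 and 21.9 FPKM (CFA ratio 0.99). Mnx1, a motor neuron transcription factor, was at 2.15 and 0.835 FPKM (CFA ratio 1.26). HDAC4 3SA CFA mice held the highest level of all 6 groups for each of these 4 genes. Ache, which other cells express too, was at 42.7 and 36.2 FPKM. Slc5a7, chosen after its values were seen, also differed little, with 12.6 and 11.6 FPKM (CFA ratio 0.11). It was at 14.3 FPKM in LacZ CFA mice. The summed level of the list was 177 FPKM in HDAC4 3SA CFA mice, 123 FPKM in HDAC4 wt CFA mice and between 87.0 and 149 FPKM in the other groups.

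Genes of dorsal horn neurons moved the other way. Of 13 neuropeptide genes, 11 were lower and 2 higher in HDAC4 3SA CFA mice, with a median CFA ratio of -0.33 (-0.29 after saline, also 11 of 13 lower) and 1 past 2-fold. Nmu, which encodes neuromedin U, was at 3.34 FPKM in HDAC4 3SA CFA mice and 7.10 FPKM in HDAC4 wt CFA mice (CFA ratio -1.07, or -0.90 with 1 FPKM added), and at 5.54 and 9.63 FPKM after saline. The LacZ groups were at 6.62 FPKM (CFA) and 6.71 FPKM (saline), close to wt CFA. Pdyn, the precursor of dynorphin opioids, was at 18.7 and 35.6 FPKM (CFA ratio -0.93), and at 21.0 and 29.3 FPKM after saline. In LacZ mice Pdyn was at 34.3 FPKM after CFA and 17.4 FPKM after saline, so HDAC4 3SA CFA mice held a level near that of LacZ saline mice. Cck (17.9 and 27.7 FPKM) and Nts (13.1 and 20.4 FPKM), which encode cholecystokinin and neurotensin, had CFA ratios of -0.63 and -0.64. The most abundant members differed less: Penk, the enkephalin precursor, was at 111 and 139 FPKM and Sst, which encodes somatostatin, at 72.1 and 78.5 FPKM. The summed level of the 13 genes was 383 FPKM in HDAC4 3SA CFA mice, the lowest of the 6 groups, 478 FPKM in HDAC4 wt CFA mice and 578 FPKM in LacZ CFA mice.

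Of 10 dorsal horn transcription factors, 9 were lower (median CFA ratio -0.25, after saline -0.10 with 7 of 10 lower) and none passed 2-fold. Ebf1 was at 14.6 and 20.4 FPKM (CFA ratio -0.48), Lmx1b at 6.00 and 7.69 FPKM and Tlx3, a selector of excitatory neurons, at 3.68 and 4.68 FPKM. In each of these 3 genes HDAC4 3SA CFA mice held the lowest level of the 6 groups. Markers shared by all neurons did not move in this way. The pan-neuronal list had 8 of 13 members higher and a median of 0.13 (12 of 13 and 0.20 after saline), with Snap25 at 646 and 719 FPKM and Nefh, a neurofilament of large axons, at 185 and 153 FPKM. Genes of inhibitory transmission were lower in 11 of 14 (median -0.14) but higher in 10 of 14 after saline (median 0.07), with Gad1, which makes GABA, at 64.0 and 80.8 FPKM. Potassium channel genes were lower in 10 of 14 (median -0.08) but higher in 13 of 14 after saline (median 0.10), and the largest difference was that of Kcnj3, at 11.5 and 13.8 FPKM. Motor neuron and dorsal horn genes thus lay on opposite sides of 0 between the same groups, and the part of ventral tissue in the dissections was not tested.

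**Figure D3:**
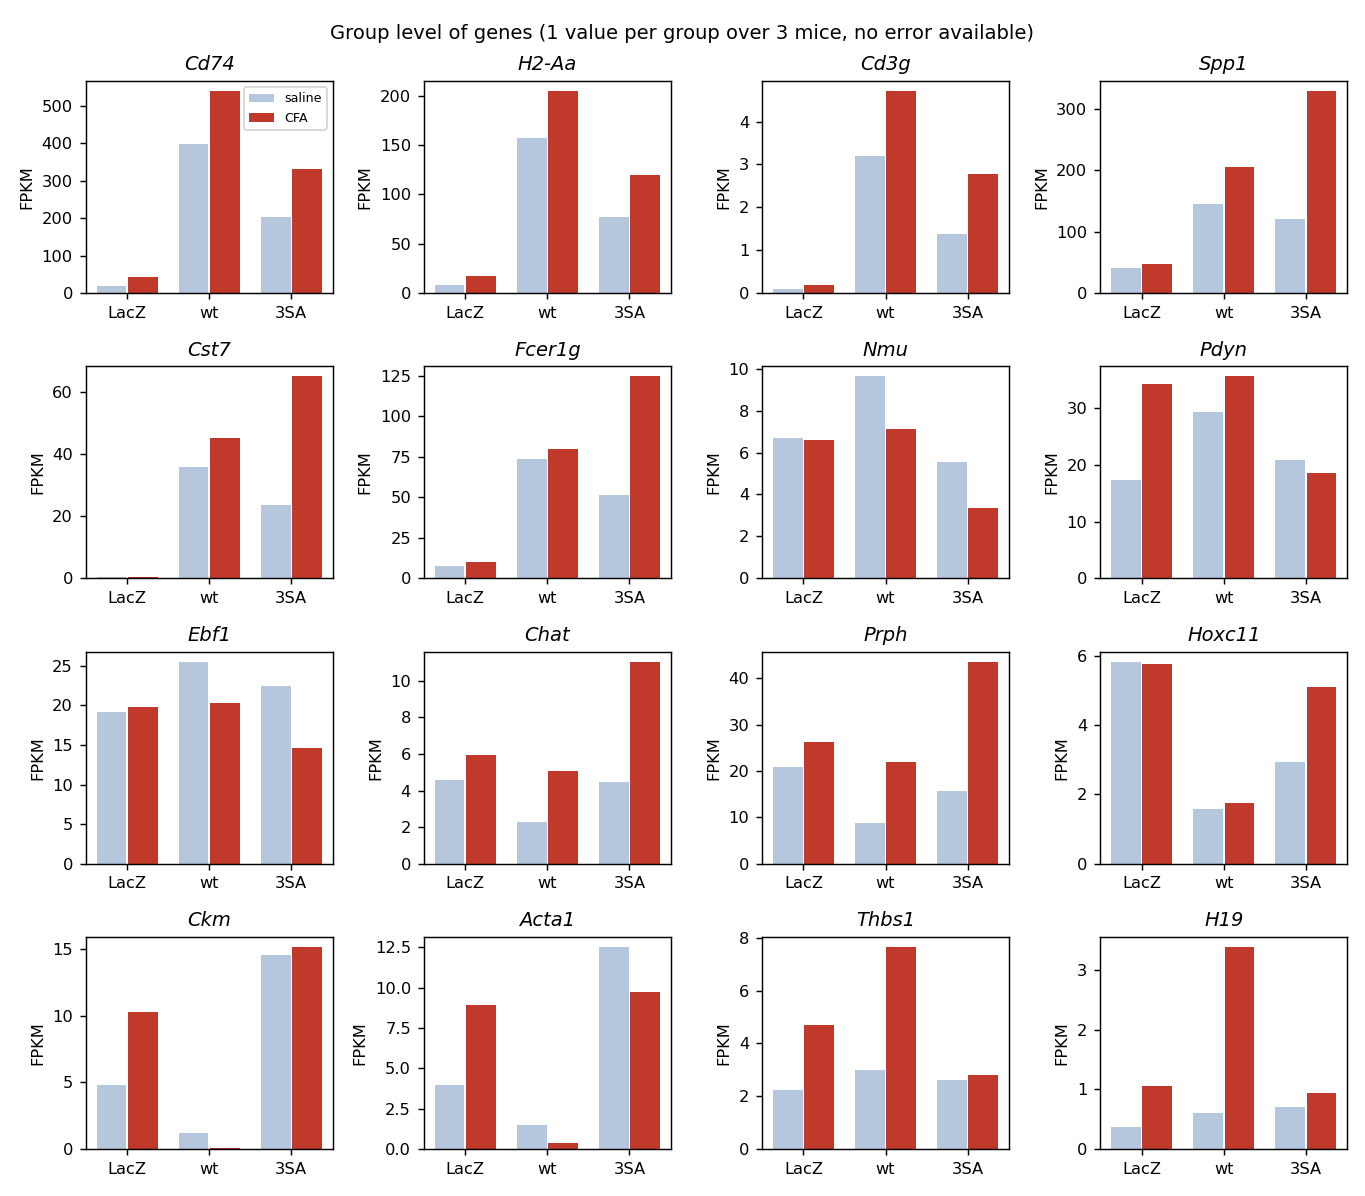
Level of 16 genes in the 6 groups (FPKM, axes from 0); blue bars are saline and red bars CFA, and each bar is 1 deposited value over 3 mice with no error available. Cd74, H2-Aa and Cd3g are lower in 3SA than in wt in both treatments, Spp1, Cst7 and Fcer1g are highest in 3SA CFA, and Thbs1 and H19 are highest in wt CFA.

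MHC class II genes, whose products present peptides to helper T cells, were lower in all 6 compared members, with a median CFA ratio of -0.71 and none past 2-fold. After saline all 6 were lower too, with a median of -0.99 and 3 past 2-fold. Cd74, the invariant chain that guards the peptide groove, was at 332 FPKM in HDAC4 3SA CFA mice and 540 FPKM in HDAC4 wt CFA mice (CFA ratio -0.71). It was at 204 and 397 FPKM after saline and at 43.5 and 17.8 FPKM in LacZ CFA and LacZ saline mice. H2-Aa (120 and 205 FPKM), H2-Ab1 (86.0 and 141 FPKM) and H2-Eb1 (61.03 and 105 FPKM), which encode the classical chains, had CFA ratios between -0.78 and -0.72. The summed level of the 6 genes was 621 FPKM in HDAC4 3SA CFA mice, 1017 FPKM in HDAC4 wt CFA mice and 99.1 FPKM in LacZ CFA mice, so the 3SA group lay between the other vectors.

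Promoters of class II genes are known for a shared Y box, the site of the factor NF-Y, and are shown for the members that moved together. The letters TGATTGG of the Y box are in capitals. All windows hold 250 bases before and 50 bases after the start in RefSeq (GRCm38.p6), for H2-Aa at chr17:34287774-34288073 (minus strand), for H2-Eb1 at chr17:34305617-34305916 (plus strand) and for H2-DMb1 at chr17:34152941-34153240 (plus strand).
H2-Aa: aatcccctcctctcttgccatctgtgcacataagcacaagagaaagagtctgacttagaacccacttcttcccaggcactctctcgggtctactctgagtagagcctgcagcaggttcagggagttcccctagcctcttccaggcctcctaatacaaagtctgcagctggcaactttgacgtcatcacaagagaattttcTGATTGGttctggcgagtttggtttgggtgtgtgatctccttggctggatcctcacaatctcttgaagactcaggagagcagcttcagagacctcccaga
H2-Eb1: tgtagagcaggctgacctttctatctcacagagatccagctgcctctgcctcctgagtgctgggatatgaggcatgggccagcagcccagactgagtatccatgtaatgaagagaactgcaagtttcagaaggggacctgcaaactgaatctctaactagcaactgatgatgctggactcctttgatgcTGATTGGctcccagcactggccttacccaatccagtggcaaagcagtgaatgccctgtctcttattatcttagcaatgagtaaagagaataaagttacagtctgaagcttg
H2-DMb1: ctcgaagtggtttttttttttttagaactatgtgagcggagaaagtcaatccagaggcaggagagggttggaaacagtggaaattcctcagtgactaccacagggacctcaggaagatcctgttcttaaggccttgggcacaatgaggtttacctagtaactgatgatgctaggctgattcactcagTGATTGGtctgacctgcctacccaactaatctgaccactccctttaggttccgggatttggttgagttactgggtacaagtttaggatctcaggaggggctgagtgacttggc
The box begins 50, 61 and 63 bases before the start, in the same direction as the gene. It was found on either strand in 3 of the 4 class II genes with an entry and in 2217 of 27025 promoters (8.20%). H2-DMb1, chosen after its values were seen, was at 10.1 FPKM in HDAC4 3SA CFA mice and 12.3 FPKM in HDAC4 wt CFA mice.

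T cell genes were lower in all 10 compared members (median CFA ratio -0.50, after saline -0.83, also 10 of 10). Cd3g, a chain of the T cell receptor complex, was at 2.79 FPKM in HDAC4 3SA CFA mice and 4.71 FPKM in HDAC4 wt CFA mice, and at 1.36 and 3.20 FPKM after saline. Ccl5, a chemokine of cytotoxic lymphocytes, was at 32.8 and 50.7 FPKM (CFA ratio -0.63), against 1.49 FPKM in LacZ CFA mice. The list summed to 49.9 FPKM in HDAC4 3SA CFA, 75.1 FPKM in HDAC4 wt CFA and 4.27 FPKM in LacZ CFA mice. Both HDAC4 groups thus lay far above LacZ. The other 6 members were under 1 FPKM and divided, 3 lower and 3 higher. MHC class I genes were lower in 11 of 11 (median -0.21, after saline -0.65), with B2m at 514 and 561 FPKM and H2-K1 at 322 and 385 FPKM. B and plasma cell genes were lower in 7 of 8 (median -0.21, after saline -0.53), and Jchain, which joins secreted IgA and IgM, was at 227 and 282 FPKM. H2-T23 shows how the choice of strand enters: on its own strand it was at 66.5 and 80.6 FPKM (CFA ratio -0.28), while the locus on the other strand had a CFA ratio of -1.64.

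Microglial genes went in the opposite direction after CFA. Of 13 genes of activated microglia, 12 were higher and 1 lower in HDAC4 3SA CFA mice (median CFA ratio 0.36), whereas 13 of 13 were lower after saline (median -0.43). None passed 2-fold in either state. Spp1, which encodes osteopontin, was at 330 FPKM in HDAC4 3SA CFA mice and 206 FPKM in HDAC4 wt CFA mice (CFA ratio 0.68), but at 121 and 144 FPKM after saline (saline ratio -0.25). Cst7, a cathepsin inhibitor, was at 65.0 and 45.2 FPKM after CFA and at 23.4 and 35.7 FPKM after saline, with 0.464 FPKM in LacZ CFA mice. Lpl, a lipase, was at 40.9 and 26.1 FPKM after CFA and at 23.1 and 26.3 FPKM after saline. Ctss, a cathepsin that processes antigen and the most abundant of the 13 compared members of a list of 16, differed less, with 719 and 686 FPKM after CFA. The exception was Cd63, read from a locus over 27.3% of the gene, at 3.22 and 5.54 FPKM. The list summed to 2203 FPKM in HDAC4 3SA CFA, 1820 FPKM in HDAC4 wt CFA, 1097 FPKM in HDAC4 3SA saline and 1425 FPKM in HDAC4 wt saline mice. The order of the vectors was thus turned between the treatments.

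Fc receptor genes had the same form, with 6 of 7 higher after CFA (median 0.24) and 7 of 7 lower after saline (median -0.48). Fcer1g, the signalling chain that these receptors share, was at 125 and 80.0 FPKM after CFA and at 51.4 and 73.6 FPKM after saline. Fcrls, a receptor of homeostatic microglia, was at 21.2 and 11.6 FPKM (CFA ratio 0.86), with 2.56 FPKM in LacZ CFA mice. The other homeostatic genes differed less. That list had 6 of 9 higher and a median of 0.04 (8 of 9 lower and -0.14 after saline), with Csf1r, the receptor for a microglial growth factor, at 78.1 and 70.5 FPKM.

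Interferon response genes were higher in 13 of 15 after CFA, by little (median 0.13), and lower in 15 of 15 after saline (median -0.32). Isg15 was at 56.0 and 44.6 FPKM after CFA and at 28.0 and 34.2 FPKM after saline. Rsad2, an antiviral enzyme, was at 9.92 and 7.63 FPKM (CFA ratio 0.37). Complement genes were split, with 6 of 11 higher (median 0.04, after saline -0.45). C1qa was at 500.0 and 486 FPKM and C3, the hub of the cascade, at 41.1 and 52.1 FPKM. Toll-like receptor and NF-κB genes had 8 of 14 higher (median 0.04, after saline -0.37). Interleukin and TNF genes had 8 of 13 higher (median 0.04, after saline -0.27), and the largest ratio was that of Tnfrsf1a, a TNF receptor, at 54.6 and 38.6 FPKM (0.49).

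Chemokine genes divided among themselves. Of 13 compared, 7 were higher and 6 lower after CFA (median 0.02), whereas 13 of 13 were lower after saline (median -0.38). Ccl8, which attracts monocytes, was at 6.02 FPKM in HDAC4 3SA CFA mice and 13.2 FPKM in HDAC4 wt CFA mice (CFA ratio -1.13), the same difference as after saline (4.45 and 10.02 FPKM, saline ratio -1.15). Ccl3 (8.41 and 5.17 FPKM) and Ccl4 (7.08 and 4.65 FPKM), which activated microglia release, had CFA ratios of 0.69 and 0.59 but saline ratios of -0.16 and -0.30. Macrophage and monocyte genes were also divided after CFA, 4 higher and 4 lower (median -0.08, or 0.18 over the 4 at 5 FPKM or more), and 8 of 8 were lower after saline (median -0.52). Lyz2, the lysozyme of myeloid cells, was at 547 and 441 FPKM after CFA, and Ccr2, the receptor by which blood monocytes enter tissue, at 0.839 and 1.34 FPKM.

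**Figure D4:**
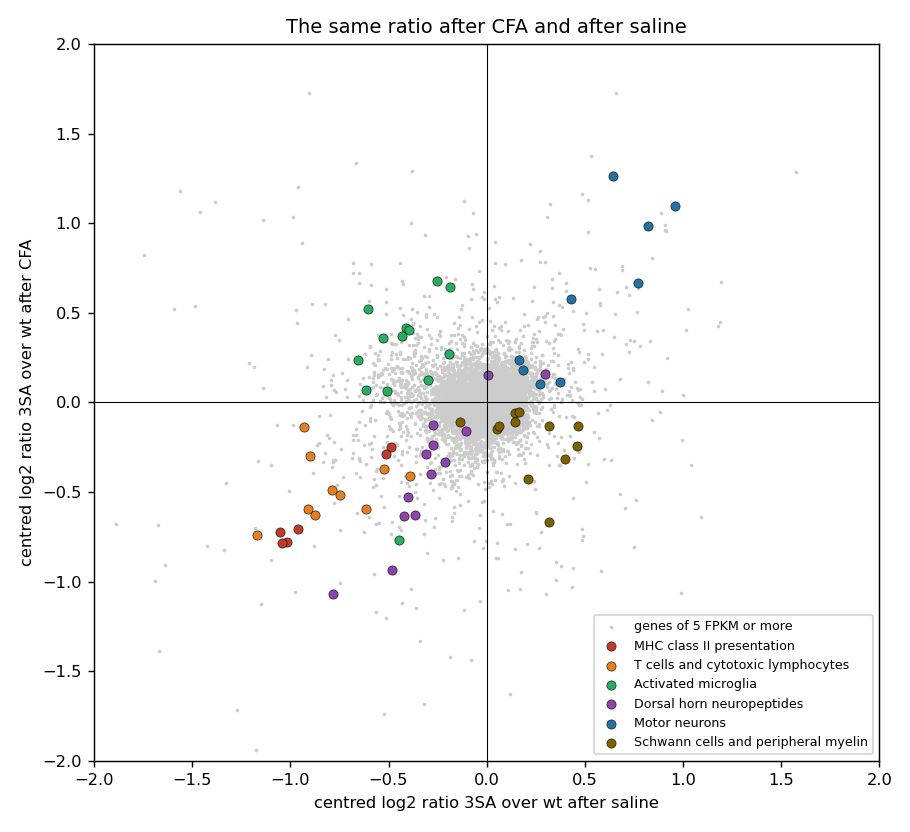
CFA ratio against saline ratio (both log2, HDAC4 3SA over HDAC4 wt) for 9671 genes of 5 FPKM or more (grey; 22 lie outside the axes) and for members of 6 lists in colour. MHC class II and T cell genes lie low in both states, motor neuron genes high in both, and activated microglia genes are, but for 1, above 0 after CFA and below 0 after saline.

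Neutrophil genes were higher in HDAC4 3SA mice in both states, 6 of 7 after CFA (median 0.43) and 7 of 7 after saline (median 0.53). S100a9 was at 18.4 and 13.8 FPKM after CFA, and Camp, a granule peptide, at 1.80 and 0.846 FPKM (CFA ratio 1.01, or 0.60 with 1 FPKM added). LacZ CFA mice lay above both, with 52.8 FPKM for S100a9 and 5.97 FPKM for Camp. Lcn2, which neutrophils and reactive astrocytes both express, was at 15.9 and 10.7 FPKM, and at 14.3 FPKM in LacZ CFA mice. Of 4 red blood cell genes, 2 were higher and 2 lower (median 0.37, or 0.06 over 5 with no minimum level). Hbb-bs, a β-globin, was at 384 and 197 FPKM after CFA (CFA ratio 0.96) and at 339 and 181 FPKM after saline, and Alas2, the enzyme of haem synthesis in red cell precursors, was at 10.6 and 6.26 FPKM. The part of blood in the neutrophil values was not tested.

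Some matricellular and collagen genes, and H19, differed by more than 2-fold after CFA and by less after saline. Thbs1, which encodes thrombospondin 1, was at 2.80 FPKM in HDAC4 3SA CFA mice and 7.65 FPKM in HDAC4 wt CFA mice (CFA ratio -1.42), but at 2.60 and 2.98 FPKM after saline (saline ratio -0.19). It was at 4.71 FPKM in LacZ CFA and 2.22 FPKM in LacZ saline mice, so both other vectors were higher after CFA than after saline while the HDAC4 3SA groups were alike. H19, an imprinted non-coding RNA, was at 0.944 and 3.38 FPKM after CFA (CFA ratio -1.74) and at 0.7002 and 0.5997 FPKM after saline (saline ratio 0.20), with 1.05 FPKM in LacZ CFA mice. Nov, a secreted protein of the CCN family, was at 2.10 and 4.91 FPKM after CFA (CFA ratio -1.19, or -0.94 with 1 FPKM added), at 3.16 and 2.80 FPKM after saline and at 4.72 FPKM in LacZ CFA mice. Ctgf, of the same family, was at 4.76 and 7.57 FPKM, and Mgp, an inhibitor of mineral deposition, at 23.9 and 39.6 FPKM (CFA ratio -0.73). In each of these 5 genes HDAC4 wt CFA mice held the highest level of the 6 groups. The study singled out Thbs1, H19 and Nov on these samples, and their pattern is not independent evidence. It also measured H19 and Nov by quantitative RT-PCR in additional samples, which are not part of the values given here. The list of matricellular genes as a whole was near the centre, with 5 of 14 higher, 9 lower and a median of -0.04 (11 of 14 lower and -0.20 after saline). Sparc, its most abundant member, was at 424 and 423 FPKM, and Fn1, which encodes fibronectin, was higher at 37.6 and 30.01 FPKM.

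Collagen genes were lower in 10 of 13 (median -0.14, after saline -0.17 with 11 of 13 lower). Col6a2 was at 4.15 FPKM in HDAC4 3SA CFA mice and 9.13 FPKM in HDAC4 wt CFA mice (CFA ratio -1.12, or -0.98 with 1 FPKM added), with 5.34 FPKM in LacZ CFA mice. Its partners in collagen VI, Col6a1 (7.19 and 10.8 FPKM) and Col6a3 (1.15 and 1.75 FPKM), had CFA ratios of -0.59 and -0.57. Col1a2, of the fibrous collagen I, was at 34.1 and 42.8 FPKM. Among genes of the leptomeninges, 7 of 9 were lower (median -0.38, after saline -0.17). The other 6 members, under 1 FPKM, were all lower by 2-fold or more, and over all 15 the median was -0.62. These 6 include Msln, Slc22a6 and Slc26a7, which the study chose on these samples, so the count is not independent evidence. The share of all loci under 1 FPKM that were lower by 2-fold was not counted. Slc13a4, a sulfate transporter, was at 1.22 and 2.51 FPKM (CFA ratio -0.99), and Aldh1a2, which makes retinoic acid, at 5.77 and 8.88 FPKM. Ptgds, the prostaglandin D2 synthase, was at 390 and 527 FPKM, while Dcn, a proteoglycan of fibroblasts, was at 88.9 and 83.3 FPKM.

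Msln, Slc22a6 and Slc26a7, which the study names from these data, were under 1 FPKM and thus outside the comparison. Slc22a6, which encodes organic anion transporter 1, was listed at 0.0752 FPKM in HDAC4 3SA CFA mice, 0.388 FPKM in HDAC4 wt CFA mice and 0.769 FPKM in LacZ CFA mice, read from a locus over 14.1% of the gene. Msln was at 0.0962, 0.916 and 1.01 FPKM in the same order, and Slc26a7 at 0.0897, 0.803 and 0.765 FPKM. In all 3 the HDAC4 3SA CFA group was the lowest of the 3 CFA groups. Lrg1, an acute-phase gene of the same set, was alike at 6.93 and 6.99 FPKM. The study chose these 4 genes on these samples, and their order is not independent evidence. It also measured these 4 genes by quantitative RT-PCR in additional samples, and organic anion transporter 1 protein by staining of the dorsal horn. Those measurements are not part of the values given here. Ptgs2, the inducible cyclooxygenase, was at 1.49 and 1.33 FPKM.

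Peripheral myelin genes were lower in all 12 compared members after CFA, by little (median -0.13), and higher in 11 of 12 after saline (median 0.19). Prx, a scaffold of Schwann cells, was at 41.6 and 51.8 FPKM after CFA. The study singled out Prx on these samples and also measured it by quantitative RT-PCR in additional samples. Scn7a, a sodium channel of Schwann cells, was at 2.92 and 4.69 FPKM (CFA ratio -0.67). Central myelin genes were lower in 13 of 13 (median -0.13), with Mobp at 905 and 1177 FPKM. Astrocyte genes were lower in 8 of 11 (median -0.09, after saline 0.01 with 5 of 11 lower). Gfap, their intermediate filament, was at 1094 and 1025 FPKM, against 415 FPKM in LacZ CFA mice. Endothelial genes had 8 of 11 higher and a median of 0.02 (2 of 11 and -0.05 after saline). Ribosomal protein genes had 5 of 14 higher and a median of -0.02 (0 of 14 and -0.13 after saline), and genes of oxidative phosphorylation 11 of 13 higher and a median of 0.06 (12 of 13 and 0.08 after saline). Immediate early genes were lower in 10 of 15 (median -0.14, after saline -0.00 with 8 of 15 lower), and the largest differences were those of Egr3, at 1.03 and 1.44 FPKM, and Nr4a1, at 5.29 and 7.17 FPKM.

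**Figure D5:**
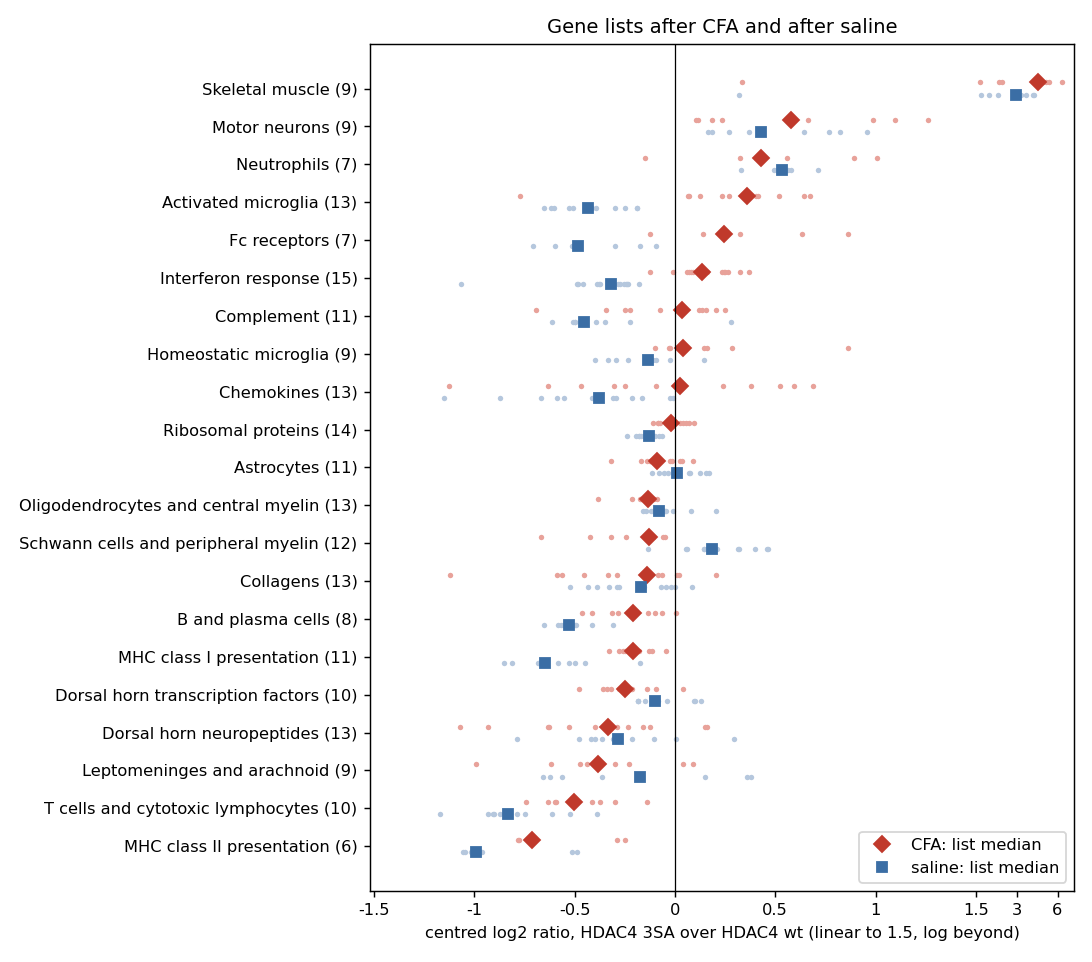
Centred log2 ratio of HDAC4 3SA over HDAC4 wt after CFA (red) and after saline (blue) for 21 gene lists; small points are single genes, large symbols the list median, and the number compared stands in brackets. The axis is linear to 1.5 and logarithmic beyond. Muscle and motor neuron genes lie right of 0 in both states, MHC class II and T cell genes left of 0 in both, and activated microglia genes on opposite sides.

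Hox genes were read as markers of the segment. Of 6 compared members of the list, 5 were lower (2 of 6 after saline), and Hoxb8, the most abundant, was at 98.1 and 129.5 FPKM (CFA ratio -0.40). Hoxc11, of a more caudal group, was at 5.12 FPKM in HDAC4 3SA CFA mice and 1.74 FPKM in HDAC4 wt CFA mice (CFA ratio 1.497), and at 2.94 and 1.57 FPKM after saline. Both LacZ groups had 5.78 FPKM (CFA) and 5.83 FPKM (saline), above every HDAC4 group. The muscle and motor neuron sums given above were also higher in HDAC4 3SA CFA than in HDAC4 wt CFA mice, with LacZ CFA mice between and not above, and whether the dissected segments differed was not tested.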

How the data were processed

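The authors extracted RNA from the dorsal spinal cord of 3 mice per group, sequenced stranded poly-A libraries (single reads of 50 bp), aligned them to mm10 with TopHat and Bowtie, and estimated FPKM with Cufflinks, Cuffmerge and Cuffdiff. The deposited tables give 1 FPKM value per group and gene locus, so neither spread between mice nor the exact depth of each library is known. The study's methods state only a minimum number of reads. Fold change, statistic, p-value and q-value columns of the authors' own comparisons were not used. From the FPKM values, ratios were computed with 0.1 FPKM added, centred on the median of loci above 5 FPKM, and called at 2-fold (pandas 2.3.3, numpy 2.4.6). No test was run. The arithmetic of the ratio was checked on simulated levels without noise, which lends no support to the calls. Named genes were the 10 highest and 10 lowest named loci at 5 FPKM or more, without predicted names or loci at 0 in either group, and, in each list, the 2 most abundant and up to 4 most different members. Strand was inferred from the order of identifiers against GENCODE M21, and the choice of 1 locus per gene was made after seeing the data. Members and gene lists were chosen with earlier results of these data known. Some genes are not reported here.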

Additional observations from a re-analysis of the deposited data

Results flagged for a closer look

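The lists of activated microglia and Fc receptors had medians on opposite sides of 0 after CFA and after saline. The CFA median less the saline median was 0.79 for activated microglia and 0.73 for Fc receptors, on the log2 scale. With 1 value per group, neither difference was tested.

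Of the named loci, 5 were past 2-fold in opposite directions in the 2 states. The CFA ratio less the saline ratio was 4.65 for Cks1brt, 4.89 for Was and 3.30 for Ppp1r2-ps3, each a locus under 200 bp. It was -4.33 for Tfdp1 and -2.86 for Tank, each a locus on the strand opposite to the gene. These differences were not tested.

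Immunoglobulin genes were left out by name, and 4 constant region genes among them differed by more than 2-fold. Igha was at 90.9 FPKM in HDAC4 3SA CFA mice and 435 FPKM in HDAC4 wt CFA mice, a log2 ratio of -2.26, and at 0.240 FPKM in LacZ CFA mice. Ighg3 was at 15.8 and 161 FPKM (-3.35). Iglc1 was at 215 and 34.2 FPKM (2.64) and Iglc2 at 47.0 and 22.9 FPKM (1.03). After saline the log2 ratios were -1.16 for Igha, 0.63 for Ighg3, -1.21 for Iglc1 and -2.99 for Iglc2, so Igha alone of these 4 kept its direction. How far the antibody genes of single mice set these values was not tested.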

How the results depend on the processing

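Counts of loci past 2-fold, in the order higher after CFA, lower after CFA, higher after saline and lower after saline, moved with the settings. They were 205, 193, 120 and 135 with 1 FPKM added, 132, 147, 89 and 113 at a mean of at least 5 FPKM, and 1108, 981, 742 and 800 with no minimum level. At 3-fold they were 126, 102, 87 and 86, and at 1.5-fold 746, 1135, 522 and 766. Loci that name 1 gene gave 188, 224, 124 and 178, and loci of 200 bp or more 171, 274, 128 and 173. Loci on the annotated strand gave 108, 73, 59 and 83, and 1 locus per gene 68, 64, 50 and 65. The cause was not tested beyond what each setting leaves out. Of the count values 28 stayed within 1.5 times, and of the list medians 481 moved by less than 0.2 and 9 by more. Those 9 were of skeletal muscle (1.87 with 1 FPKM added, 4.65 with nothing added, 2.33 with no minimum level), leptomeninges (-0.62), red blood cells (0.06) and a list of genes drawn up from the study (-1.19) with no minimum level, macrophages (0.18) and dorsal root ganglion neurons (-0.62) at 5 FPKM or more, and the latter (-0.52) with either strand. The medians of macrophages (-0.08) and dorsal root ganglion neurons (0.08), both near 0, changed sign there. Of the gene values 38 moved by more than 0.2, 26 of them with 1 FPKM added, where 6 (Camp, Chat, Col6a2, Mnx1, Nmu and Nov) were no longer past 2-fold. With the locus chosen on either strand, Avil went from 0.55 to -0.52 and Fcgr1 from 0.33 to -0.74. The settings on length, strand and locus were chosen after seeing the data. Leaving out single mice could not be run. No paired analysis was possible because the tables hold 1 value per group. The depth of each library, known only as a stated minimum, limits all values near 1 FPKM.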

Other observations

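Some genes chosen after their values were seen stood apart. Hoxa11 and Hoxd11, of the same caudal group as Hoxc11, were also higher in HDAC4 3SA CFA mice, with 6.37 and 3.67 FPKM (CFA ratio 0.77) and 9.17 and 3.67 FPKM (1.29). In LacZ CFA mice they were at 5.78 and 10.7 FPKM. After saline the ratios were 0.09 and -0.38.

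Krtdap, a gene of the epidermis, was at 19.2 FPKM in HDAC4 wt CFA and 13.7 FPKM in LacZ CFA mice and was listed at 0 in HDAC4 3SA CFA mice and in all saline groups. Myom2, a protein of the muscle M band, was at 5.99 FPKM in HDAC4 3SA CFA and 4.66 FPKM in HDAC4 3SA saline mice and was listed at 0 in both HDAC4 wt groups. A locus named Adam32 was at 125 FPKM in HDAC4 3SA CFA mice, listed at 0 in both HDAC4 wt groups and at 11.02 FPKM in LacZ CFA mice.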
